A study of Mus musculus with 3 samples.

Results

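Transforming growth factor beta (TGF-beta) signalling was followed through 34 genes for its ligands, its receptors, the SMAD proteins that carry the signal to the nucleus, and the proteins that restrain it. They were a named list, 34 of the 19751 mouse genes that probes of the arrays could be matched to, and 51 probes stood for them. A gene with several probes was read from its brightest probe, and 15 of the 34 had several. All 3 arrays measured 26 of these genes above background in both dyes, 4 more were measured on 1 or 2 arrays, and 4 on none.

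TGF-beta is secreted bound to a latency peptide, is held at the cell surface or in the matrix, and must be released before it can bind. The freed ligand joins a type II and a type I receptor kinase, which phosphorylate SMAD2 and SMAD3. These enter the nucleus with SMAD4 and act with partner factors on target genes, among which are several that shut the pathway down again. In CD4 T cells TGF-beta is known for inducing Foxp3 and regulatory T cells, and, together with IL-4, for driving cells that make IL-9.

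Naive CD4 T cells came from spleens of C57BL/6 mice 6 to 8 weeks old and were isolated on magnetic beads. Stimulation lasted 3 days in all cultures and used plate-bound antibody to CD3e and soluble antibody to CD28, at 10 µg/ml each. The T helper 2 (Th2) medium held IL-2 at 1 ng/ml, IL-4 at 5 ng/ml and an antibody to interferon gamma at 2 µg/ml, with no TGF-beta 1 named. The Th9 medium held IL-2 at 0.2 ng/ml, IL-4 at 1 ng/ml, human recombinant TGF-beta 1 at 2 ng/ml and the interferon gamma antibody at 5 µg/ml. The medium for induced regulatory T cells (iTreg) held IL-2 at 0.4 ng/ml, TGF-beta 1 at 5 ng/ml, and antibodies to interferon gamma and IL-4 at 5 µg/ml each. TGF-beta 1 therefore went from 0 to 2 to 5 ng/ml across the 3 media, while IL-2, IL-4 and both antibodies changed as well, so the effects of these agents cannot be told apart. Cells stimulated in plain medium were not among the samples, so stimulation and medium are held together in every ratio against naive cells.

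Each culture's RNA was labelled with Cy5 and hybridised beside Cy3-labelled naive RNA on 1 array, so there were 3 arrays, all on 1 slide, with no dye swap. Whether 1 extract served as naive RNA on the 3 arrays, and whether mice were pooled, is not given in the labels. With 1 array per culture there is no spread between replicate cultures and no test. A value with ± carries the scanner software's error for that spot, or, for a difference between cultures, the combined error of both spots (n = 1 array per culture). That error was made for the scanner software's own log ratio and is set here beside a loess value. For a probe printed several times it is the mean of the errors of its spots. Values are log2 ratios of Cy5 over Cy3, or normalised log2 intensities where a level is given. A gene is called higher or lower at 2-fold, a log2 value of 1, and levels of different genes are not compared because probes differ in brightness.

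The 3 arrays were alike in quality. Of 43020 spots per array, the naive channel had 53.0% to 54.1% and the culture channel 48.9% to 51.0% well above background, and no spot was saturated. The labels were checked by their signature genes. Il4, the Th2 cytokine, stood at 5.08 in Th2, Il9 at 6.52 in Th9, and Foxp3, the regulatory T cell factor, at 3.49 in iTreg against naive. All 12 T cell markers were above background in every channel. Of 9 platelet markers, a cell type rich in TGF-beta 1, 3 were above background in each naive channel and 1 in each culture, and Pf4, Ppbp and Itga2b were not above background in any culture. Of 12 endothelial and stromal markers 4 to 6 were above background in each channel.

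Naive RNA gave the error between arrays. Over the 26 members measured on all arrays, the SD of the 3 naive channels had a median of 0.055 log2 units, against 0.046 over the 10349 genes measured on all arrays. The highest was 0.15, for Lrrc32. The SD over the 3 cultures' normalised log2 intensities had a median of 0.54 for the members and 0.26 for all these genes.

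For a view of the regulatory sequence behind the receptors and corepressors whose levels differed most between the media, the 250 bases before the transcription start were taken from RefSeq promoters of assembly GRCm38.p6. The promoters used came from 25 of the 34 members and numbered 32. None was used for Ldlrad4, Lrrc32, Pmepa1, Skil, Smad2, Smad4, Smad7, Tgfb3 and Tgfbr3. Below are the upstream bases of the type I receptor gene Tgfbr1 (chr4:47352972-47353221, plus strand), the bone morphogenetic protein receptor gene Bmpr2 (chr1:59764029-59764278, plus strand), the corepressor gene Tgif1 (chr17:70851735-70851984, minus strand), the type II receptor gene Tgfbr2 (chr9:116175364-116175613, minus strand) and the activin receptor gene Acvr2b (chr9:119401928-119402177, plus strand). Capitals mark each match to the SMAD box, CAGAC or its reverse complement GTCTG.
Tgfbr1: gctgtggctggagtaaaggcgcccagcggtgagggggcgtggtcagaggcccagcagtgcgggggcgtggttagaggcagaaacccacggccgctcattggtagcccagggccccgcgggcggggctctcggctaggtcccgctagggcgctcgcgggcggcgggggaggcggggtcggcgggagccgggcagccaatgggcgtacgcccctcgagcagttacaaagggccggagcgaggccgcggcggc
Bmpr2: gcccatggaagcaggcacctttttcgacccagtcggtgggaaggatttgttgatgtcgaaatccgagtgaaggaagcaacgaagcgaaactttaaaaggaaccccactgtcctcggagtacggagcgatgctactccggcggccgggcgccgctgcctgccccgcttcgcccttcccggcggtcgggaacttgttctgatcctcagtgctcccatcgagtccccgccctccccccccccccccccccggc
Tgif1: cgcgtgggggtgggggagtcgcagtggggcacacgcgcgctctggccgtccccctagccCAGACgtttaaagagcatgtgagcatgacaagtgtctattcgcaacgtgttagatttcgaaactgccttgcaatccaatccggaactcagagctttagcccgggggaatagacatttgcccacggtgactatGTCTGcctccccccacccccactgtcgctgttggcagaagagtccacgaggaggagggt
Tgfbr2: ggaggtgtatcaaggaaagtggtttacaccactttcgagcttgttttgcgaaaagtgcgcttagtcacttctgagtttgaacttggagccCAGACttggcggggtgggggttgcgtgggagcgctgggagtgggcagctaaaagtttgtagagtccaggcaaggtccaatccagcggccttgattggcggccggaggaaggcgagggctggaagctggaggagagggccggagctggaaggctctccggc
Acvr2b: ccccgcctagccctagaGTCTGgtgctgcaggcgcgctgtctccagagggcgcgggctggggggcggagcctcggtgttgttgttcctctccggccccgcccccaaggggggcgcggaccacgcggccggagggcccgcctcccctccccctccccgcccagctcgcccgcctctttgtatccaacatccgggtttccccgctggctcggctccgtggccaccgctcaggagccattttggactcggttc

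The Tgif1 stretch held 2 matches, those of Tgfbr2 and Acvr2b 1 each, and those of Tgfbr1 and Bmpr2 0. RefSeq lists another start for Tgfbr1 (chr4:47385966-47386215) whose upstream bases held 1 match. It lists 5 starts for Tgif1, and the other 4 stretches held 1, 1, 0 and 0 matches; the printed one was chosen because it held the most. Over the member promoters used, searched on both strands, 14 of 32 (43.8%), from 12 genes, held the SMAD box, beside 42.2% of 32851 mouse promoters of the same length. The member shares leave out chromosome 18, where Ldlrad4, Smad2, Smad4 and Smad7 lie. Whether these genes have a promoter entry is therefore not shown. For the shares of all promoters no chromosome was removed. The palindromic SMAD element GTCTAGAC was in 0 member promoters and in 0.167% of all. The GC-rich SMAD element GGCGC was in 21 of 32 (65.6%) and in 32.0% of all. The AP-1 element TGACTCA was in 0 and in 4.46% of all. A match describes the letters in the window and is not a binding site.

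Against naive cells, 7 of the 28 members measured on the Th2 array were at least 2-fold higher, where 14.8% of all measured genes were, and 3 were lower, where 14.5% were. On the Th9 array 12 of 27 were higher (15.5% of all genes) and 2 lower (15.6%). On the iTreg array 9 of 28 were higher (10.2% of all genes) and 1 lower (8.15%). For the members the median log2 ratio was 0.08 on the Th2 array, 0.72 on the Th9 array and 0.40 on the iTreg array, and that of all genes lay between -0.02 and -0.01. Some calls lay close to the 2-fold line: 7, 5 and 9 members in Th2, Th9 and iTreg were within their own error of it. More than 2 scanner errors from naive were 18 of 28 members in Th2 (60.4% of all genes), 23 of 27 in Th9 (62.0%) and 21 of 28 in iTreg (48.4%). At least 2-fold above naive on all 3 arrays were 3 of 26 members, Tgfb3, Bmpr2 and Lrrc32, where 7.29% of all genes were, and 0 were below on all 3, where 6.02% were. Within 2-fold of naive on all 3 arrays were 10 of the 26: Smad1, Smad2, Smad3, Smad4, Smad5, Ski, Tgif2, Smurf1, Smurf2 and Eng. Of these, Smad1, Smad2 and Smad5 passed 2-fold under other settings, as given with the SMADs. The share of all genes within 2-fold of naive on all 3 arrays is not given, so the count of 10 describes the members only. Under median centring Tgfb3 stood at 0.92 in iTreg and left the 3 genes above naive on all arrays. Higher in iTreg than in naive cells were then 6 in place of 9 members, where 8.18% of all genes were.

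**Figure D1:**
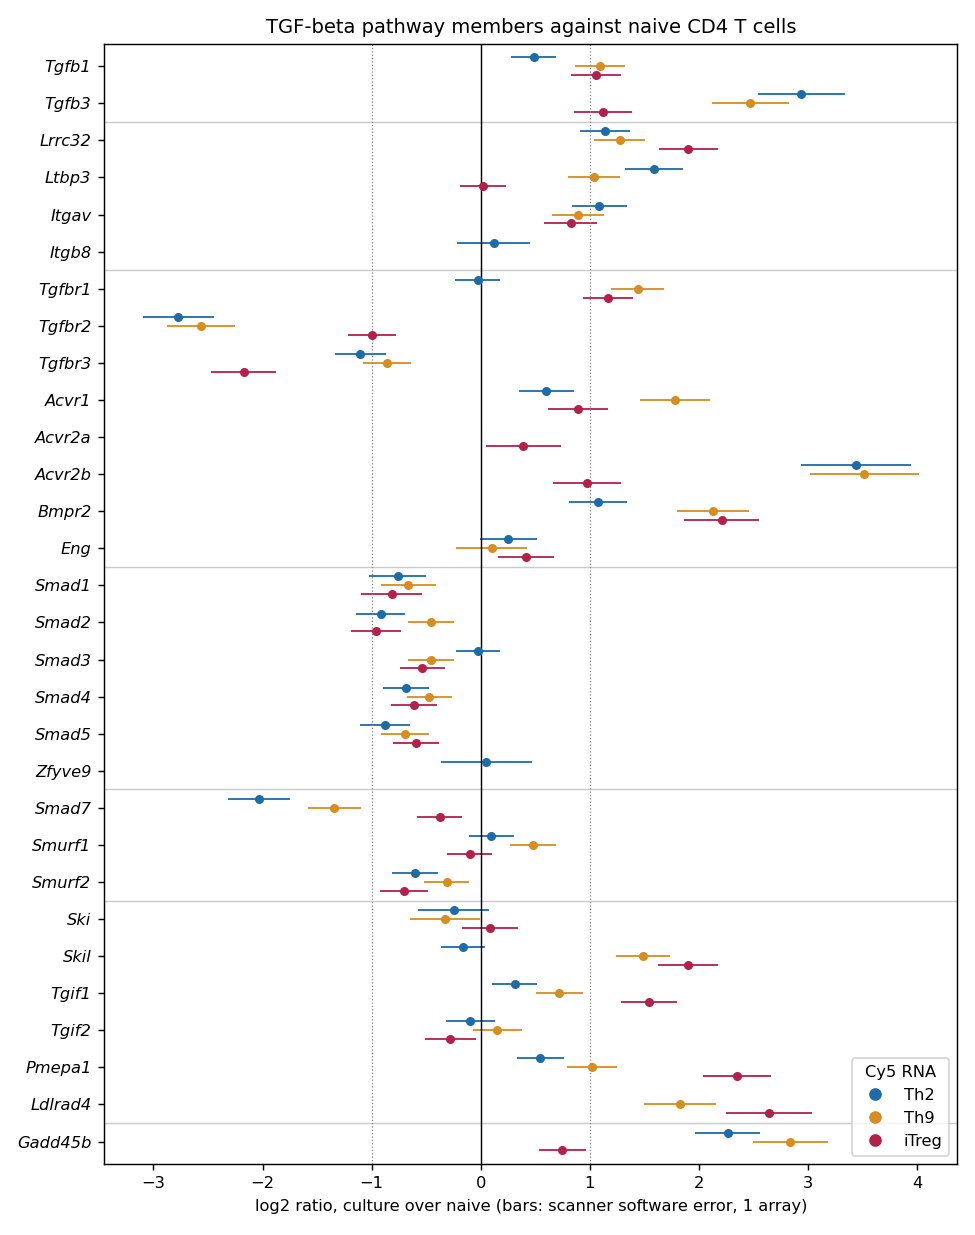
Log2 ratio of each culture over naive cells for the 30 members measured on at least 1 array, in groups by role (ligands, latency proteins, receptors, SMAD transducers, inhibitory SMADs and ligases, inhibitors, and the target Gadd45b), with the scanner software's error as bars and dotted lines at 2-fold. Acvr2b in Th2 and Th9 (3.44 and 3.52) lies farthest to the right, Tgfbr2 in the same cultures (-2.77 and -2.57) farthest to the left, and the SMAD transducers sit between -0.96 and 0.05.

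Between cultures, Th9 was higher than Th2 for 4 of 26 members, namely Tgfbr1, Acvr1, Bmpr2 and Skil, where 1.28% of all genes were, and lower for 0, where 1.38% were. iTreg was higher than Th2 for 7 of 26, namely Tgfbr1, Tgfbr2, Bmpr2, Smad7, Skil, Tgif1 and Pmepa1 (6.87% of all genes), and lower for 5, namely Tgfb3, Tgfbr3, Acvr2b, Ltbp3 and Gadd45b (6.69%). iTreg was higher than Th9 for 2 of 27, Tgfbr2 and Pmepa1 (6.8% of all genes), and lower for the same 5 genes that were lower than in Th2 (6.29%). More than 2 combined scanner errors apart were 4 of 26 members between Th9 and Th2 (5.34% of all genes), 13 of 26 between iTreg and Th2 (28.4%) and 10 of 27 between iTreg and Th9 (27.9%). The 3 comparisons are built from the same 3 arrays. For Tgfbr2 the call depends on the probe, as given with the receptors.

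The scaling of the arrays bears on these counts. With each array centred on its median in place of loess, the median difference of all genes between iTreg and Th2 moved from -0.00 to -0.59, and 4 members were then called higher (Tgfbr2, Smad7, Skil and Pmepa1) and 6 lower, Smad3 being added. Over all genes, 2.28% were then higher and 26.8% lower. Tgfbr1 stood at 0.62, Bmpr2 at 0.76 and Tgif1 at 0.59 under that scaling. Counted from the shifted median of all genes, the members called were again the same 7 and 5.

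**Figure D2:**
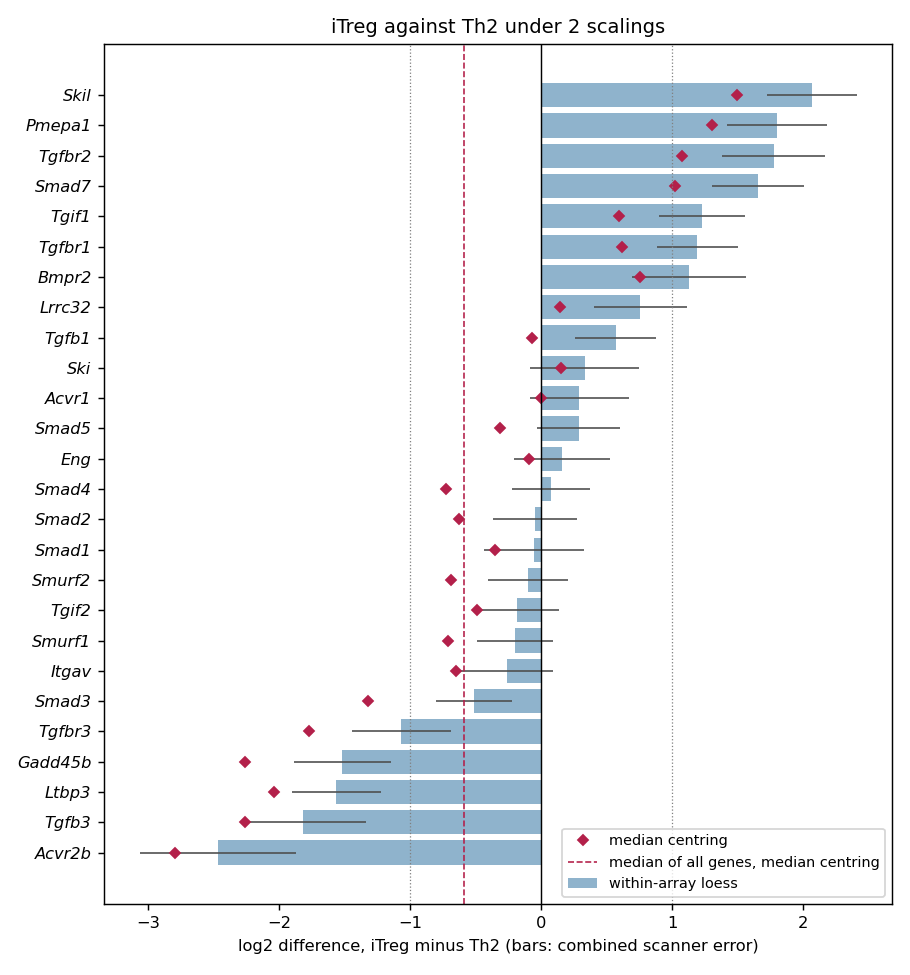
Difference in log2 ratio between iTreg and Th2 for the 26 members measured on both arrays: bars show loess values with the combined scanner error, diamonds show median centring, and the dashed line marks the median of all genes under median centring (-0.59). Skil (2.07) is at the upper end and Acvr2b (-2.47) at the lower, and every diamond lies to the left of the end of its bar.

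The ligand genes differed in opposite ways. Tgfb1, the main TGF-beta of lymphocytes, had naive levels of 10.39 to 10.47, a level of 10.87 in Th2, and 11.53 in both Th9 and iTreg. Both cultures given TGF-beta 1 were above Th2, and all were above the naive range. Its ratio was 0.48 ± 0.21 in Th2, 1.10 ± 0.23 in Th9 and 1.05 ± 0.23 in iTreg. The difference to Th2 was 0.61 ± 0.31 for Th9 and 0.57 ± 0.31 for iTreg, below 2-fold, and under median centring the iTreg difference was -0.07. The probe was printed 10 times, and the SD over its spots was 0.036 to 0.047.

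Tgfb3, another isoform that binds the same receptors, had naive levels of 7.37 to 7.51 and levels of 10.44 in Th2, 9.89 in Th9 and 8.50 in iTreg. It was thus highest in the medium without TGF-beta 1 and lowest of the cultures in the one with most. The ratio was 2.94 ± 0.40 in Th2, 2.47 ± 0.36 in Th9 and 1.12 ± 0.26 in iTreg. iTreg lay 3.52-fold below Th2 (log2 -1.82 ± 0.48) and 2.55-fold below Th9. Th9 and Th2 did not differ beyond their errors (-0.47 ± 0.53). The SD over the 10 spots was 0.075 to 0.12. Tgfb2, the third isoform, was not above background in any channel with either of its 2 probes.

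Among the genes that store and release the ligand, Lrrc32 encodes GARP, which tethers latent TGF-beta on regulatory T cells. Its naive levels were 10.04 to 10.32, and it reached 11.18 in Th2, 11.36 in Th9 and 12.22 in iTreg. All cultures were above naive and iTreg was the highest, with ratios of 1.14 ± 0.23, 1.27 ± 0.24 and 1.90 ± 0.27. The difference of 0.76 ± 0.35 between iTreg and Th2 was below 2-fold, and 0.15 under median centring. Compared directly between the Cy5 channels it was 1.04, or 2.06-fold, for the gene with the highest SD of the naive channels (0.15).

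Ltbp3, a latent TGF-beta binding protein of the matrix, ran the other way. It had naive levels of 8.18 to 8.30, and the cultures stood at 9.79, 9.22 and 8.32 in the order Th2, Th9, iTreg, so iTreg was near the naive range. The ratio was 1.59 ± 0.26 in Th2, 1.04 ± 0.24 in Th9 and 0.02 ± 0.21 in iTreg. That put iTreg 2.95-fold below Th2. A second, dimmer probe gave 2.83 in Th2 and was not measured in both dyes on the other arrays.

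Itgav, the integrin alpha V chain that helps to release TGF-beta from its latency peptide, had naive levels of 7.57 to 7.67 and levels of 8.66, 8.56 and 8.47 in Th2, Th9 and iTreg. The 3 cultures were above naive and within their errors of each other, with ratios of 1.09 ± 0.25, 0.89 ± 0.24 and 0.82 ± 0.24. Its partner chain Itgb8 was measured on the Th2 array alone, at 0.12 ± 0.33.

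The receptors showed the widest range. Tgfbr1 encodes the type I receptor kinase that phosphorylates SMAD2 and SMAD3. Naive levels were 9.58 to 9.69, and the cultures stood at 9.60 in Th2, 11.02 in Th9 and 10.85 in iTreg. Th2 lay within the naive range, and both cultures with TGF-beta 1 lay above it. The ratios were -0.03 ± 0.21, 1.44 ± 0.24 and 1.17 ± 0.23. Th9 was 2.76-fold and iTreg 2.29-fold above Th2, and Th9 and iTreg did not differ beyond their errors (-0.27 ± 0.34). A second, dimmer probe gave smaller differences to Th2, 0.83 ± 0.45 for Th9 and 0.57 ± 0.49 for iTreg.

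Tgfbr2 encodes the type II receptor that binds the ligand first, and its 2 probes opposed each other. The brighter probe, with naive levels of 14.39 to 14.43, gave 11.62 in Th2, 11.83 in Th9 and 13.43 in iTreg, far below naive in Th2 and Th9 and less so in iTreg. Its ratios were -2.77 ± 0.33, -2.57 ± 0.31 and -0.99 ± 0.22. The other probe gave 0.16 ± 0.20, 0.55 ± 0.21 and -0.28 ± 0.21, and on it iTreg was below Th2 by 0.44 ± 0.29 log2 units, where the brighter probe put iTreg above by 1.78 ± 0.39. Of the 10 members with at least 2 probes measured on all arrays, Tgfbr2 was the only gene whose probes differed by more than 2-fold (up to 3.11 log2 units). No direction is therefore given for Tgfbr2.

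**Figure D3:**
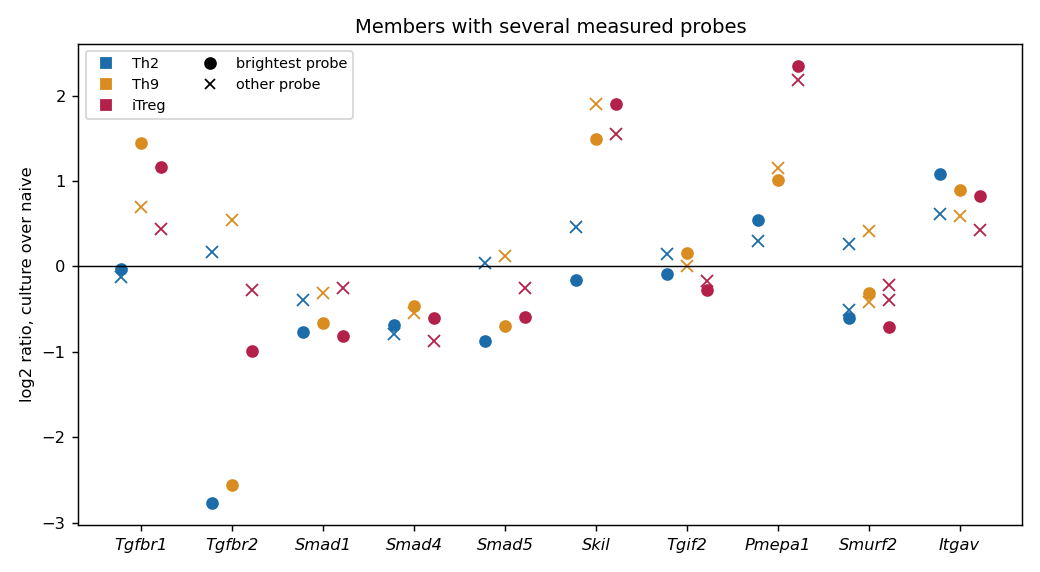
Log2 ratio against naive for every measured probe of the 10 members with at least 2 probes measured on all 3 arrays; circles are the brightest probe of a gene, crosses its other probes, and colours the cultures. The probes of Tgfbr2 lie up to 3.11 log2 units apart, and those of the other 9 genes within 0.92.

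Tgfbr3 encodes betaglycan, the co-receptor that presents ligand to the type II receptor. Naive levels were 11.42 to 11.49, and the cultures stood at 10.35 in Th2, 10.63 in Th9 and 9.25 in iTreg. Every culture was below naive and iTreg was the lowest, at -2.17 ± 0.30 against -1.10 ± 0.23 in Th2 and -0.86 ± 0.22 in Th9. iTreg was 2.10-fold below Th2 and 2.49-fold below Th9. Eng, endoglin, the related co-receptor best known from blood vessels, was within 2-fold of naive throughout, at 0.25 ± 0.26, 0.10 ± 0.32 and 0.41 ± 0.25.

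Of the receptors shared with activins and bone morphogenetic proteins (BMPs), Acvr2b, Bmpr1a, Bmpr2 and Acvr1 were above naive in each culture. Acvr2b, a type II activin receptor, had naive levels of 6.69 to 6.84, near background, and levels of 10.12 in Th2, 10.35 in Th9 and 7.75 in iTreg. Th2 and Th9 were high and alike, and iTreg was between them and naive. The ratio was 3.44 ± 0.51 in Th2, 3.52 ± 0.50 in Th9 and 0.97 ± 0.31 in iTreg, so iTreg lay 5.53-fold below Th2 (-2.47 ± 0.59) and 5.84-fold below Th9 (-2.55 ± 0.59). With naive so near background, the ratios against naive depend on the background correction: without the normexp offset they were 4.41 in Th2 and 1.46 in iTreg, and by the scanner ratio 4.86 and 1.91. The difference between iTreg and Th2 was then -2.95 and -2.96.

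Bmpr1a, a type I BMP receptor, had the same order, although its naive channel was not above background on any array (6.36 to 6.41). Its levels were 9.14 in Th2, 9.41 in Th9 and 8.29 in iTreg. Set against the background level of the naive channel, these were at least 6.09-fold, 7.40-fold and 3.47-fold higher. Compared directly between the Cy5 channels, iTreg was 0.85 log2 units below Th2 (that is, -0.85) and 1.12 below Th9 (-1.12).

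Bmpr2, the type II BMP receptor, followed the opposite order. Naive levels were 7.18 to 7.22, and the cultures stood at 8.26 in Th2, 9.35 in Th9 and 9.40 in iTreg. All were above naive, with Th9 and iTreg alike and above Th2. The ratio was 1.08 ± 0.27 in Th2, 2.13 ± 0.33 in Th9 and 2.21 ± 0.34 in iTreg. Th9 was 2.07-fold and iTreg 2.19-fold above Th2, each by little more than the 2-fold line.

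Acvr1, a type I receptor for BMPs and activins, was highest in Th9. Its naive levels were 7.06 to 7.24, and the cultures stood at 7.84, 8.84 and 8.03 in the order Th2, Th9, iTreg. The ratios were 0.60 ± 0.26, 1.78 ± 0.32 and 0.90 ± 0.28, and Th9 lay 2.26-fold above Th2. iTreg and Th2 did not differ beyond their errors (0.29 ± 0.38). Acvr1b, the main type I activin receptor, was above background in the naive channels alone and thus has no measured ratio, and Acvr2a, a type II activin receptor, was measured on the iTreg array alone, at 0.39 ± 0.35.

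The SMAD transducers differed far less than the receptors. Smad1, Smad2, Smad3, Smad4 and Smad5 were within 2-fold of naive in all 3 cultures by the loess values, but for Smad1, Smad2 and Smad5 this depended on the processing. By the scanner software's own ratio Smad1 stood at -1.29, -1.13 and -1.64 in Th2, Th9 and iTreg, Smad2 at -1.05 in Th2 and -1.16 in iTreg, and Smad5 at -1.13 in Th2, all past 2-fold lower. Without a normexp offset Smad1 was at -1.01 in Th2 and -1.10 in iTreg and Smad2 at -1.02 in iTreg, and median centring put Smad2 at -1.25 in iTreg. Smad3 and Smad4 kept within 2-fold of naive under these settings. Smad2, a receptor-regulated SMAD of the TGF-beta branch, had ratios of -0.92 ± 0.23 in Th2, -0.46 ± 0.21 in Th9 and -0.96 ± 0.23 in iTreg. Smad4, the shared partner, had ratios of -0.69 ± 0.21, -0.47 ± 0.21 and -0.61 ± 0.21. By these loess values both were below naive in every culture by at least their error. Under median centring Smad4 stood at 0.02 in Th2, 0.02 in Th9 and -0.71 in iTreg, so its direction in Th2 and Th9 depends on the scaling.

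Smad3, the other SMAD of the TGF-beta branch, was alone among these 5 in having a Th2 level within the naive range. Naive levels were 12.24 to 12.31, and the cultures stood at 12.28 in Th2, 11.78 in Th9 and 11.70 in iTreg. The ratios were -0.03 ± 0.20, -0.46 ± 0.21 and -0.54 ± 0.21, so the cultures given TGF-beta 1 were the lower ones, by 0.43 ± 0.29 and 0.51 ± 0.29 log2 units below Th2 (-0.43 and -0.51), less than 2-fold. Under median centring the iTreg difference was -1.32, against -0.59 for all genes.

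Smad1 and Smad5, the SMADs of the BMP branch, were below naive by ratios of -0.59 to -0.88. A second probe of Smad5 gave 0.04, 0.12 and -0.25 in Th2, Th9 and iTreg, so its direction against naive rests on the probe. Zfyve9, the SMAD anchor SARA, was measured on the Th2 array alone, at 0.05 ± 0.41.

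Transcripts of several inhibitory proteins were higher in iTreg than in Th2. Smad7, the inhibitory SMAD that blocks the type I receptor and is itself a known target of TGF-beta, had naive levels of 12.12 to 12.23 and levels of 10.20 in Th2, 10.86 in Th9 and 11.75 in iTreg. Every culture was below naive, Th2 the most and iTreg the least. The ratios were -2.03 ± 0.28, -1.34 ± 0.24 and -0.38 ± 0.21. iTreg was 3.15-fold above Th2 (1.65 ± 0.35), and this held under median centring (1.02). It was 1.95-fold above Th9 (0.97 ± 0.32).

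Smad6, the inhibitory SMAD of the BMP branch, was above background in the Cy5 channels of Th9 and iTreg and in no naive channel. Its level was 7.39 in Th9 and 7.08 in iTreg, at least 0.86 and 0.58 log2 units above the background level of naive. In Th2 it was not well above background. Smurf1 and Smurf2, ubiquitin ligases that remove receptors and SMADs, were within 2-fold of naive on every array. Smurf1 had ratios of 0.10 ± 0.21, 0.48 ± 0.21 and -0.10 ± 0.21, and Smurf2 had ratios of -0.60 ± 0.21, -0.31 ± 0.21 and -0.70 ± 0.22, with 1 of its 3 probes above naive in Th2 (0.26) and Th9 (0.41).

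Skil encodes SnoN, a nuclear corepressor that binds SMADs and is itself induced by TGF-beta. Naive levels were 10.41 to 10.48, and the cultures stood at 10.24 in Th2, 11.97 in Th9 and 12.35 in iTreg. Th2 was just below the naive range, and both cultures with TGF-beta 1 were far above it. The ratio was -0.16 ± 0.21 in Th2, 1.49 ± 0.25 in Th9 and 1.90 ± 0.27 in iTreg. Th9 was 3.15-fold and iTreg 4.19-fold above Th2. The SD over the 9 or 10 spots of this probe was 0.038 to 0.071.

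The second Skil probe, printed once, gave 0.46 ± 0.21, 1.90 ± 0.29 and 1.55 ± 0.27. Both probes put Th9 and iTreg at least 2-fold above Th2, by 1.44 and 1.09 on the second. They put Th9 and iTreg in opposite orders (0.41 ± 0.37 and -0.35 ± 0.39), so no order is given between these cultures. Ski, the related corepressor, was near naive at -0.25 ± 0.32, -0.33 ± 0.32 and 0.08 ± 0.26.

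Pmepa1 encodes a membrane protein that keeps SMAD2 and SMAD3 from the receptor and is itself a known TGF-beta target. Naive levels were 8.33 to 8.50, and the cultures stood at 8.88 in Th2, 9.52 in Th9 and 10.82 in iTreg. The levels went up from naive to Th2, Th9 and iTreg. The ratio was 0.55 ± 0.21, 1.02 ± 0.23 and 2.35 ± 0.31. iTreg was 3.49-fold above Th2 (1.80 ± 0.38) and 2.52-fold above Th9 (1.33 ± 0.39). The second probe gave the same order, at 0.30, 1.15 and 2.18.

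Ldlrad4 encodes a membrane protein of the Pmepa1 family with a like role. Naive levels were 7.04 to 7.12, and it stood at 8.94 in Th9 and 9.68 in iTreg, while in Th2 it was not well above background (6.77). The ratio was 1.82 ± 0.33 in Th9 and 2.64 ± 0.40 in iTreg. Against the Th2 spot's own signal, compared directly between the Cy5 channels, these cultures were 4.50-fold and 7.48-fold higher. As differences of log2 ratios they lay 2.11 ± 0.50 and 2.92 ± 0.55 above Th2, where the Th2 spot was not well above background. iTreg was above Th9 by 0.82 ± 0.51 log2 units.

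Tgif1, a homeodomain corepressor that binds SMAD2 and SMAD3, had naive levels of 11.38 to 11.56 and levels of 11.69 in Th2, 12.17 in Th9 and 13.11 in iTreg. Again the order was naive, Th2, Th9, iTreg. The ratio was 0.31 ± 0.21, 0.72 ± 0.22 and 1.54 ± 0.25, and iTreg was 2.35-fold above Th2 (1.23 ± 0.33). Its relative Tgif2 was within 2-fold of naive, at -0.09 ± 0.22, 0.15 ± 0.22 and -0.28 ± 0.23.

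Gadd45b, a stress-induced activator of p38 signalling that TGF-beta is known to induce through SMADs in other cells, was lowest in the culture with most TGF-beta 1. Naive levels were 9.90 to 10.10, and Th2 stood at 12.33, Th9 at 12.94 and iTreg at 10.65. Th2 and Th9 were high, and iTreg was closer to naive. The ratio was 2.27 ± 0.30 in Th2, 2.84 ± 0.34 in Th9 and 0.75 ± 0.22 in iTreg. iTreg lay 2.86-fold below Th2 (-1.52 ± 0.37) and 4.26-fold below Th9 (-2.09 ± 0.41).

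**Figure D4:**
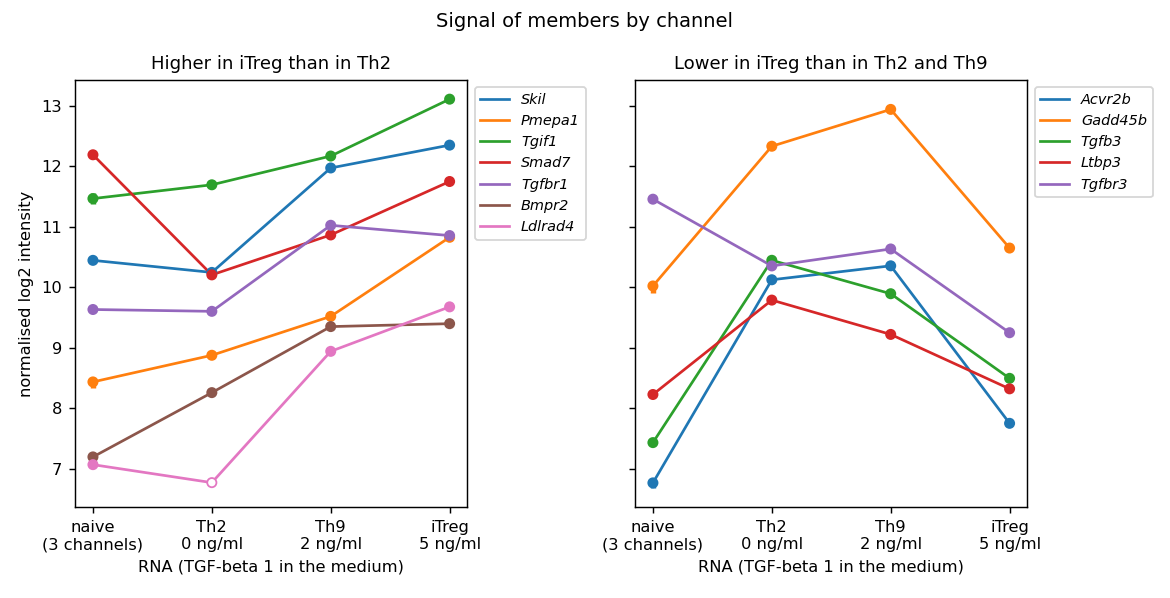
Normalised log2 intensity of 12 members in naive cells (mean of 3 channels; the thick bar spans their range and is mostly hidden by the point) and in each culture, labelled with TGF-beta 1 in the medium; the open circle is a spot not well above background. On the left the genes higher in iTreg than in Th2, on the right those lower in iTreg than in both other cultures; lines join the points of a gene and do not stand for a time course, and heights of different genes are not comparable.

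Read across the media, 6 of the 26 members measured on all arrays went up in the order Th2, Th9, iTreg with the ends at least 2-fold apart, where 4.52% of all genes did. These were Tgfbr2 by its brighter probe, Bmpr2, Smad7, Skil by its brighter probe, Tgif1 and Pmepa1; the second Skil probe has Th9 above iTreg. The reverse order was seen for 2 members, Tgfb3 and Ltbp3, where 4.17% of all genes had it. Under median centring the counts were 2 and 4. Some neighbours in these orders did not differ beyond their errors: Th9 and iTreg for Bmpr2 (0.08 ± 0.48), and Th2 and Th9 for Tgfbr2 (0.21 ± 0.45) and Tgfb3.

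Both cultures given TGF-beta 1 were at least 2-fold above Th2 for 3 of 26 members, Tgfbr1, Bmpr2 and Skil, where 0.763% of all genes were. Under median centring Skil alone met this, with Bmpr2 at 0.91 in Th9 and 0.76 in iTreg and Tgfbr1 at 0.62 in iTreg. Both were at least 2-fold below Th2 for 0 members, where 0.725% of all genes were. iTreg was lower than both other cultures for 5 of 26, the receptor genes Tgfbr3 and Acvr2b, the ligand gene Tgfb3, the latency gene Ltbp3 and Gadd45b, where 4.62% of all genes were. The media without and with IL-4 fall the same way, since Th2 and Th9 received IL-4 and iTreg received an antibody to it, and the part of IL-4 was not tested.

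Of the 12 T cell markers, 3 were at least 2-fold higher in iTreg than in Th2 and 0 lower. Cd3d, Cd3e and Cd3g were 1.03, 1.05 and 1.02 log2 units higher in iTreg than in Th2. Cd247, another chain of the T cell receptor complex, stood at -0.26 ± 0.33 and Cd5 at -0.05 ± 0.29, and the median of the 12 was 0.66. Against naive, 7, 10 and 3 of the 12 were at least 2-fold lower in Th2, Th9 and iTreg. Of 11 NK and CD8 T cell markers, 10 were above background in each naive channel and 7, 5 and 6 in the Th2, Th9 and iTreg channels. Between iTreg and Th2, Klrd1 was higher (3.10 ± 0.57), Eomes was higher (1.34 ± 0.49) and Gzma was lower (-3.67 ± 0.75). Of the myeloid markers, Itgam (1.00 ± 0.31) and S100a9 (2.01 ± 0.63) were higher. The part of these cells, or of T cell activation, in the members' differences was not tested. In bulk RNA, fewer cells of a type and less RNA per cell cannot be told apart. Of the 9 platelet markers 1, Itgb3, was measured in iTreg and Th2, with a difference of 0.36 ± 0.35.

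Few other genes of the pathway were 2-fold apart between cultures. Of 125 further pathway genes, 122 were on the array and 83 were measured in iTreg and Th2, where 2 were at least 2-fold higher in iTreg and 4 lower, beside 6.87% and 6.69% of all genes. Higher were Sox4, a transcription factor known to be induced by TGF-beta in T cells, at 2.69 ± 0.39, and Jun, an AP-1 partner of SMADs, at 1.34 ± 0.40. Lower were Itgb5, an integrin chain that pairs with Itgav, at -1.96 ± 0.49, Runx3, a SMAD partner, at -1.41 ± 0.31, the ligand gene Bmp7 at -1.38 ± 0.31 and the p38 kinase kinase gene Map2k6 at -1.34 ± 0.33. Their median was 0.09, beside 0.12 for the members.

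By group, iTreg was at least 2-fold from Th2 for 1 of 7 measured other ligands, 0 of 3 other receptors and surface regulators, 1 of 6 latency and activation genes, 3 of 24 SMAD partners and coregulators, 0 of 24 ubiquitin, phosphatase and trafficking regulators, and 1 of 19 kinases and other genes of the branches outside the SMADs. Nrp1, a surface regulator that binds TGF-beta, was not well above background in Th2 and so is not among these counts. It was 2.19 ± 0.56 higher in iTreg than in Th2 as a difference of log2 ratios. Its iTreg level lay 2.32 log2 units above the lowest Th2 signal well above background. Between Th9 and Th2, 1 of 82 further pathway genes was higher, the type I receptor gene Acvrl1, at 1.13 ± 0.33, and 0 were lower.

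Transcripts reported to respond to TGF-beta went in both directions. Of 33 listed, 31 were on the array and 20 were measured in iTreg and Th2, with 6 higher and 6 lower in iTreg, beside 6.87% and 6.69% of all genes. The higher ones were Ccr6, a chemokine receptor gene (6.88 ± 0.64), Nt5e, the gene of the ectoenzyme CD73 (4.46 ± 0.45), Foxp3 (4.16 ± 0.46), Rgs16, Ikzf2 and Eomes. The lower ones were Gzmb, the granzyme B gene (-4.21 ± 0.43), Id2 (-2.48 ± 0.37), Id1 (-2.31 ± 0.48), Cdkn1a, Ifng and Bhlhe40. Id1, a gene known to be switched on by the BMP branch, had naive levels of 7.13 to 7.22. Its culture levels were 9.91 (Th2), 10.89 (Th9) and 7.70 (iTreg). Gadd45b, Acvr2b and Bmpr1a had the same order of levels. The step from Th2 to Th9 was within its error for Acvr2b (0.08 ± 0.71) and Bmpr1a (0.22 ± 0.89). Of all genes, 4.62% had iTreg at least 2-fold below both other cultures. A link between Id1 and these members was not tested.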

How the data were processed

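RNA was hybridised to Agilent 2-colour mouse arrays. Median intensity of each spot and its surround, in Cy3 and Cy5, is in the deposited scanner files, made with Agilent Feature Extraction 11.0.1.1 per the file headers, while version 9.3.2.1 is named in the submitters' processing notes. Each deposited file also gives the scanner software's log10 ratio of processed signals, and its error and p-value, which cover error within an array only. The deposited series values are log2 ratios of those processed signals with a constant added on each array (0.056 on Th2, 0.021 on Th9, 0.037 on iTreg), as a comparison within 0.01 showed for at least 99.96% of probes. Their column medians are 0.14, 0.26 and 0.28.

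Median intensities were background-corrected by normexp (offset 50) and normalised by loess within arrays (limma 3.58.1, R 4.3.3; files were read by data.table, release 1.17.8). Intensity levels were scaled between arrays by Aquantile. Control and outlier spots were left out, and spots of a probe were averaged. Results were tabulated with pandas 2.3.3, scipy 1.17.1 and numpy 2.4.6 under Python 3.11.15. RefSeq accessions, without versions, tied 26055 of 39429 probes (66.1%) to GRCm38.p6 genes, and array coordinates are not used since the design is of mm9. A gene counted as measured with both dyes well above background. With 1 dye above, the fold was taken against the lowest signal well above background in the dim channel, or the spot's own signal where higher. It is written as a bound ("at least") only where the loess value was not smaller. Differences between cultures are differences of log2 ratios. The number of arrays limits the precision.

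The members and gene lists were chosen with earlier results of these data known. All members are named. Of other lists the genes at least 2-fold apart between iTreg and Th2 may be named, and Acvrl1, Nrp1, Itgb3, Cd247, Cd5 and the platelet genes at background were chosen after their values were seen. Alternatives were the normexp offset, median centring, the scanner's log ratio, the deposited series values, the mean of a gene's probes, no filter on dim spots, direct Cy5 comparison and 1.5-fold in place of 2-fold.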

Additional observations from a re-analysis of the deposited data

Results flagged for a closer look

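Tgfbr1 and Skil had ratios against naive of opposite sign in Th2 and in the cultures given TGF-beta 1, and these differences were not tested. For Tgfbr1 the difference was 1.47 ± 0.32 log2 units between Th9 (1.44) and Th2 (-0.03) and 1.19 ± 0.31 between iTreg (1.17) and Th2. For Skil it was 1.65 ± 0.32 between Th9 (1.49) and Th2 (-0.16) and 2.07 ± 0.34 between iTreg (1.90) and Th2. Both Th2 ratios were smaller than their scanner errors, and the second Skil probe was above 0 in Th2 (0.46). Under median centring the Th2 ratios of Tgfbr1 and Skil were above 0 (0.27 and 0.20). Without the normexp offset that of Tgfbr1 was 0.02 and that of Skil -0.12. The opposite sign therefore depends on the processing.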

How the results depend on the processing

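No paired analysis was possible because each culture had 1 array, so the groups share a single replicate number. No member's called value changed sign under the settings tried. Median centring gave 4 members higher in iTreg than in Th2 in place of 7, where 2.28% of all genes were. It gave 2 lower in iTreg than naive in place of 1, where 12.0% of all genes were. It also gave 2 going up and 4 going down in the order Th2, Th9, iTreg in place of 6 and 2. It moved 62 single-gene values by more than their scanner error and left 100 within it. The members higher in iTreg than naive gained Acvr1 (1.22), Acvr2b (1.46) and Itgav (1.03) with a normexp offset of 0. They gained the same genes by the scanner log ratio (1.63, 1.91 and 1.22), and also Acvr2a (1.37). Members lower in iTreg than naive numbered 3 with normexp offsets of 0 and 10, with the scanner log ratio and with the deposited series values, the added ones being Smad1 and Smad2. Members lower in Th2 than naive numbered 6 with the scanner log ratio and 5 with the series values, in place of 3, adding Smad1 and Smad5 and, by the scanner, Smad2. Both gave 4 members higher in iTreg than in Th9 in place of 2, and the mean of all probes gave 1. At 1.5-fold the counts were 8 lower in Th2, 5 lower in Th9 and 7 lower in iTreg against naive, and 6 higher in iTreg than in Th9. Other than the 2.28% and 12.0% above, shares of all genes under these settings are not given, so these counts describe the members only. Leaving out a replicate was not run, since no culture had another. Members near background (Tgfb2, Smad6, Acvr1b, Bmpr1a in naive cells) have bounds or no value. A gene-specific dye effect is confounded with culture against naive and cancels between cultures.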

Other observations

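Outside the naming rule, and so chosen after their values were seen, 3 genes of the wider pathway were far from naive in every culture or in Th2. Furin, the protease that cleaves pro-TGF-beta, had naive levels of 9.77 to 9.82 and levels of 11.27 in Th2, 11.91 in Th9 and 11.44 in iTreg. Nrros, a tether of latent TGF-beta in myeloid cells, had ratios of -1.87, -2.14 and -2.13, and of 13 myeloid and dendritic markers 10 to 12 were above background in the naive channels and 6 to 8 in the cultures. Their part in the Nrros values was not tested. Inhba, the activin A subunit, was not above background in naive cells and had levels of 10.04 in Th2, 8.57 in Th9 and 6.89 in iTreg, highest where no TGF-beta 1 was added.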
